A study of Mus musculus with 24 samples.

Results

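Aquaporins are channel proteins of the cell membrane, and 4 of them, Aqp1, Aqp3, Aqp9 and Aqp11, are described here in mouse dendritic cells of 3 strains, with and without lipopolysaccharide (LPS). They are the symbols of those names among 55291 in the deposited table. The set was chosen by the measured TPM of Aqp3, high in strain PWD and near absent in strains B6 and C57, so the strain levels of Aqp3 that follow are a description and carry no test. Only 2 of the 4, Aqp3 and Aqp9, stood at 1 TPM or more in at least 4 libraries and so entered the fit with 13246 genes. TPM are transcript abundances per transcript length, scaled so that each library sums to 1000000.

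The cells were grown from bone marrow for 7 days with the growth factor GM-CSF at 20 ng/ml, a culture that yields dendritic cells together with other myeloid cells. The study addresses how inherited differences between strains bear on the response to LPS, a component of the outer membrane of Gram-negative bacteria. There were 6 groups of 4 libraries. PWD_LPS and PWD_Untreated came from PWD, an inbred line of wild Mus musculus musculus origin, with LPS from E. coli at 10 ng/ml for 6 hours or none. C57_LPS and C57_Untreated came from the strain labelled C57, and B6_LPS and B6_Untreated from the strain labelled B6, with the same treatments. Neither the ages of the mice nor how C57 mice differ from B6 mice is stated in the labels. Each strain had 4 mice with a culture each, and libraries of the same strain and number were taken from 1 mouse.

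Aquaporins let water cross membranes along its osmotic gradient. Aqp1 is a water channel known from red blood cells, kidney tubules and capillary endothelium. Aqp3 and Aqp9 are aquaglyceroporins, which also pass glycerol: Aqp3 is known from the skin, the kidney collecting duct and airway epithelium and also passes hydrogen peroxide, and Aqp9 is known as the glycerol channel of hepatocytes and from neutrophils. Aqp11 lies mainly in the endoplasmic reticulum. In human dendritic cells aquaporins have been linked to the uptake of fluid by macropinocytosis.

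Markers used for dendritic cells varied in level. Itgax, the integrin CD11c, averaged 238 to 340.3 TPM and Cd74, the MHC class II invariant chain, 1811 to 5790 TPM over the 6 groups. Zbtb46 averaged 6.26 to 15.3 TPM and Cd209a 0.201 to 3.41 TPM. Flt3, a receptor of dendritic cell progenitors, stayed below 0.5 TPM on average in each group. Of 10 dendritic cell markers, 8 or 9 averaged 1 TPM or more, and so did 9 or 10 of 10 macrophage and monocyte markers. Levels differed by strain. Dendritic cell sums, mostly Cd74, averaged 4275 and 4385 TPM in PWD (LPS, untreated), 2671 and 2923 in C57 and 7579 and 7839 in B6. Macrophage and monocyte sums averaged 789 and 818 TPM in PWD, against 1315 to 1779 elsewhere. Within that list C1qb was lower in PWD (7.20 and 11.9 TPM against 126 to 543). Cd68 was higher there (364 and 408 TPM against 166 to 341). The part of such cells in aquaporin levels was not tested. T cell markers summed to 0.363 to 7.52 TPM and B cell markers to 0.0542 to 12.7 TPM over all libraries. Between 28.8% and 44.2% of TPM lay in 8 symbols of structural RNA, such as the 7SL RNA of the signal recognition particle and mitochondrial rRNA. In PWD_Untreated that share was 41.9% and 40.3% in mice 1 and 2 and 29.3% and 28.8% in mice 3 and 4, and Xist, expressed from the inactive X chromosome of females, was at 41.9 to 104 TPM in mice 3 and 4 of every group and at most 0.0901 TPM in mice 1 and 2. The median of all genes tested was lower with LPS by 0.32 on the log2(TPM + 1) scale in PWD and C57 and by 0.43 in B6, and median-of-ratios scaling moved these medians to between -0.03 and 0.

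Aqp3 was the most abundant aquaporin of PWD cells and a gene of about 1 to 3 TPM in the other strains. It lies on the minus strand of chromosome 4 (chr4:41092722-41098183, mm10) as a protein-coding gene. With Aqp9 it makes up nearly all aquaporin RNA in these cells. The 250 bases upstream of its start are shown because the strain contrast of Aqp3 is larger than that of any other aquaporin here, and those upstream of both RefSeq starts of Aqp9 because that gene moved with LPS. They are RefSeq sequences of GRCm38.p6, read 5′ to 3′ on the minus strand, at chr4:41098184-41098433 for Aqp3, chr9:71163290-71163539 for the first start of Aqp9 and chr9:71162634-71162883 for the second. Both Aqp9 windows lie inside the GENCODE span of the gene (chr9:71110659-71168682), and the bases upstream of that span were not searched. Capitals mark the matches of the motifs searched.
Aqp3: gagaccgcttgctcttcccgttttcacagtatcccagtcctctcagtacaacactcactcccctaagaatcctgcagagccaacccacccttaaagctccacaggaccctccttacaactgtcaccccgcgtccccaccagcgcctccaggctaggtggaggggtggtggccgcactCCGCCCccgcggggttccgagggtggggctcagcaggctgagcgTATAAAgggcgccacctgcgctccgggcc
Aqp9 first start: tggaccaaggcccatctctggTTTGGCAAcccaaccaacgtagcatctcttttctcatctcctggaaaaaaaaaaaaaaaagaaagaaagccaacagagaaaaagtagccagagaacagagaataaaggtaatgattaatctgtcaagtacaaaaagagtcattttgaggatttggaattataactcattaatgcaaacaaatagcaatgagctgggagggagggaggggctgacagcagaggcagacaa
Aqp9 second start: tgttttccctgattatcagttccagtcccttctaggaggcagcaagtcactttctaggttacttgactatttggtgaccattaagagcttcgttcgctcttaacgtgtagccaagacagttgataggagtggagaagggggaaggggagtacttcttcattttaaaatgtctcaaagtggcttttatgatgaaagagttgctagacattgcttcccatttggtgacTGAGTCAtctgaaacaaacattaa
The Aqp3 window holds a TATA box (TATAAA) with 23 bases between it and the start, and a GC box (GGGCGG, here on the other strand as CCGCCC). The first Aqp9 window holds a match to a C/EBP motif (TTGCNNAA, on the other strand) and no TATA or GC box, and the second holds an AP-1 match (TGANTCA). Of 32851 promoter windows of that length, 12.4% held TATAAA, 32.7% GGGCGG, 9.56% TTGCNNAA and 6.75% TGANTCA on either strand. The other motifs searched, an IRF motif (GAAA, any 2 bases, GAAA, in 2.98% of windows), an ETS motif (AGGAAGT, 7.69%) and the NF-kB consensus (3.90%), were not found in the 3 windows. The AP-1 and C/EBP letters do not overlap another match in these windows. The reference is the sequence of a C57BL/6J mouse, and PWD alleles were not analysed here. How well PWD reads were placed on that reference, which bears on every contrast with PWD, was not tested.

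In PWD_LPS cells Aqp3 stood at 106, 139.7, 155 and 130.1 TPM in mice 1 to 4, and in PWD_Untreated cells at 118, 152, 199.5 and 200.8 TPM. In C57_LPS cells it stood at 1.21, 0.663, 0.88 and 0.861 TPM, and in C57_Untreated cells at 1.08, 1.32, 1.06 and 0.818 TPM. In B6_LPS cells the values were 0.97, 1.71, 0.787 and 1.03 TPM, and in B6_Untreated cells 2.36, 2.88, 1.74 and 2.94 TPM. Every PWD library lay above every C57 and B6 library, and the lowest PWD value was 106 TPM against a highest value of 2.94 TPM elsewhere. The order of group means ran from PWD_Untreated (167 ± 40.2 TPM, SD, n = 4) and PWD_LPS (133 ± 20.5) to B6_Untreated (2.48 ± 0.557), B6_LPS (1.12 ± 0.404), C57_Untreated (1.07 ± 0.206) and C57_LPS (0.904 ± 0.227). Neighbours in this order overlapped, apart from PWD_LPS and B6_Untreated, and B6_Untreated and B6_LPS.

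**Figure D1:**
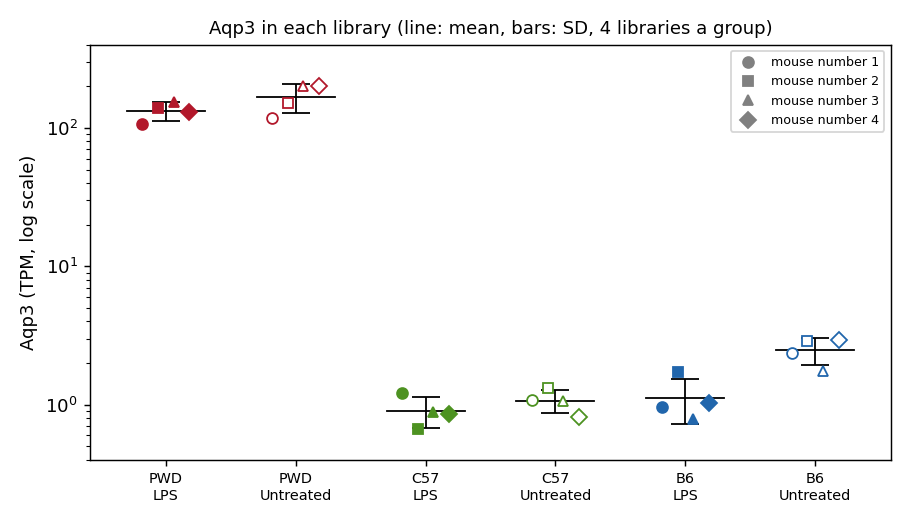
Aqp3 in TPM on a log axis, by library in the 6 groups, with filled markers for LPS, open markers for untreated cells, marker shape for mouse number, a line for the mean and bars for the SD. All 8 PWD libraries sit at 106 TPM or more and the other 16 at 2.94 TPM or less.

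In LPS cells the PWD mean of Aqp3 was 118-fold the B6 mean and 147-fold the C57 mean. In untreated cells the PWD mean was 67.6-fold the B6 mean and 156-fold the C57 mean. On the log2(TPM + 1) scale, which understates the change of low genes, the differences were 5.98 (PWD minus B6) and 6.13 (PWD minus C57) in LPS cells and 5.58 and 6.32 in untreated cells. In LPS cells 0.370% of the genes tested had a PWD minus B6 difference at least that large in size and 0.294% a PWD minus C57 one, and in untreated cells these shares were 0.415% and 0.287%. By mean TPM, Aqp3 ranked 701 in PWD_LPS and 591 in PWD_Untreated of 55291 symbols, and 10103 to 11825 in the other groups. Its share of the summed TPM of 12 aquaporins was 79.5% in PWD_LPS and 88.4% in PWD_Untreated, against 7.94% in C57_LPS, 5.93% in C57_Untreated, 7.40% in B6_LPS and 16.0% in B6_Untreated. Bulk values of this kind cannot tell fewer cells of a type apart from less RNA per cell.

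The summed level of epithelial markers differed more by treatment than by strain. Of 11 epithelial and keratinocyte markers 1 or 2 averaged 1 TPM or more, and their summed TPM ran over 4.94 to 5.89 in PWD_LPS, 33.1 to 47.3 in PWD_Untreated, 14.3 to 17.9 in C57_LPS, 37.8 to 41.9 in C57_Untreated, 4.35 to 6.01 in B6_LPS and 34.8 to 40.4 in B6_Untreated. Nearly all of it was Cdh1, the adhesion protein E-cadherin, and the other 10 averaged under 2 TPM in every group. Krt8, Cldn4 and Esrp1 were at 0 in all 8 PWD libraries. Some keratins had higher means in PWD: Krt19 averaged 0.208 TPM in PWD_LPS and 0.743 TPM in PWD_Untreated, against at most 0.0270 TPM elsewhere, Krt18 0.0295 and 0.0926 TPM against at most 0.0174 TPM, and Krt5 0.240 and 0.0106 TPM against 0 in C57 and B6. The part of epithelial cells in the level of Aqp3 was not tested. Erythroid markers summed to 1.51 to 4.99 TPM over all libraries. A list of 9 markers of mast cells, basophils and eosinophils summed to 103 to 215 TPM in PWD_LPS and 137 to 222 TPM in PWD_Untreated, against 13.3 to 34.6 in C57_LPS, 20.0 to 44.5 in C57_Untreated, 11.4 to 15.6 in B6_LPS and 17.6 to 26.4 in B6_Untreated. Of the 9, 5 averaged 1 TPM or more in each PWD group, and the eosinophil genes Prg2, Epx and Siglecf carried the PWD sums. Prg2, an eosinophil granule protein, averaged 120.1 TPM in PWD_LPS and 129.6 TPM in PWD_Untreated, against 1.5 to 4.08 TPM in the other 4 groups. Epx, eosinophil peroxidase, averaged 24.3 TPM in PWD_LPS and 26.6 TPM in PWD_Untreated, against 0.179 to 0.565 TPM elsewhere, and Siglecf, a lectin of the eosinophil surface, 18.1 and 32.2 TPM against 4.58 to 8.88 TPM. The mast cell and basophil genes Kit, Cpa3, Prss34 and Gata2 had lower means in both PWD groups than in the other 4, with Kit at 1.09 TPM in PWD_LPS and 0.927 TPM in PWD_Untreated, against 2.63 to 5.69 TPM elsewhere. Mcpt8 and Fcer1a did not follow this. Mcpt8 averaged 1.24 TPM in PWD_LPS and 1.41 TPM in PWD_Untreated, above B6 (0.874 and 1.19) and below C57 (4.56 and 4.77). Fcer1a averaged 0.400 TPM or less in every group, with 0.0262 TPM in PWD_LPS and 0.0251 TPM in B6_LPS. The part of such cells in the level of Aqp3 was not tested.

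The genes beside Aqp3 did not share its strain contrast. Within 100 kb, 4 genes passed the filter: Nfx1, a zinc finger protein, Nol6, a nucleolar protein, Ube2r2, a ubiquitin-conjugating enzyme, and Ubap2, a ubiquitin-associated protein. Their PWD minus B6 differences in LPS cells were 0.53, 0.76, -0.48 and 0.56 on the log2(TPM + 1) scale, all called by limma, and in untreated cells -0.05, 0.30, 0.07 and 0.08, with only Nol6 called. These comparisons called 68.6% and 57% of all genes tested. Their PWD minus C57 differences lay between -0.12 and 0.04 in LPS cells and between -0.13 and 0.21 in untreated cells, with none called, where 54.2% and 46.2% of all genes were. Aqp7, another aquaglyceroporin 44583 bases from Aqp3, reached at most 0.131 TPM in any library.

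**Figure D2:**
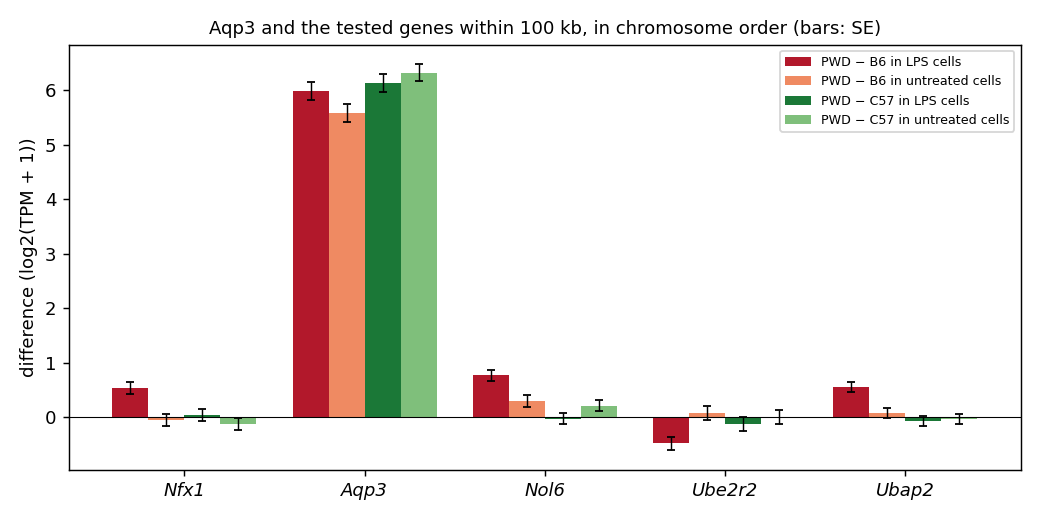
Differences between strains (log2(TPM + 1), bars SE) of Aqp3 and the 4 tested genes within 100 kb, in chromosome order, with PWD minus B6 and PWD minus C57 in LPS and untreated cells. Aqp3 stands at 5.58 to 6.32 and its neighbours between -0.48 and 0.76.

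Genes whose pattern over the 24 libraries was much like that of Aqp3, by Pearson r on log2(TPM + 1), were Serpinb9g (0.993), a serine protease inhibitor, Lipo2 (0.992), Zfp979 (0.992) and Cyp1b1 (0.991), a cytochrome P450 enzyme. Each has a PWD mean far above the others, so that r mostly reflects the strain contrast. Cyp1b1 averaged 58.5 TPM in PWD_LPS and 47.1 TPM in PWD_Untreated, against 0.364 TPM in C57_LPS, 0.589 in C57_Untreated, 0.694 in B6_LPS and 0.976 in B6_Untreated.

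LPS left Aqp3 high in PWD cells. It was lower in LPS than in untreated cells of all 4 PWD mice, with ratios of 0.901, 0.922, 0.777 and 0.648, but the groups overlapped and the difference of -0.31 (SE 0.16) on the log2(TPM + 1) scale missed the threshold (limma, Benjamini-Hochberg adjusted p = 0.0905) and lay close to the median of all genes, -0.32. Calls in this comparison covered 63.5% of the 13246 genes tested, and of the 2 members tested 1, Aqp9, was called. With the mouse as a block the adjusted p of Aqp3 was 0.0278, and without the untreated library of mouse 1 the difference was -0.47 (adjusted p = 0.0106). With median-of-ratios scaling it was 0.07 (adjusted p = 0.712). With structural RNA left out of the total, Aqp3 was at 174, 223, 244 and 213 TPM in PWD_LPS cells, against 203, 254, 282 and 282 TPM in PWD_Untreated cells. In proportion, mice 1 and 2 and mice 3 and 4 lay closer together in PWD_Untreated cells that way, and hardly so in PWD_LPS cells. The part of structural RNA in the result was not tested further.

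In B6 cells Aqp3 fell with LPS, by 0.71 (SE 0.16, limma adjusted p = 2.9e-04), with 1.12 ± 0.404 TPM in B6_LPS and 2.48 ± 0.557 TPM in B6_Untreated cells (SD, n = 4 each). It was lower in all 4 mice, with ratios of 0.350 to 0.594, and the groups did not overlap. In this comparison 71.6% of genes were called, and Aqp3 was the 1 of the 2 tested members among them. The median of all genes was -0.43, and with quantile normalization the difference of Aqp3 was -0.28 (adjusted p = 0.0922). In C57 cells the difference was -0.12 (SE 0.16, adjusted p = 0.519), the groups overlapped, and ratios in the 4 mice ran over 0.502 to 1.12. Median-of-ratios scaling and quantile normalization turned it to 0.06 and 0.12.

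Between C57 and B6, Aqp3 was lower in untreated C57 cells by 0.74 (SE 0.16, limma adjusted p = 6.5e-04), with no overlap of the groups. This comparison called 38.8% of genes and 1 of the 2 tested members. In LPS cells the difference was -0.15 (adjusted p = 0.452), but median-of-ratios scaling gave -0.38 (adjusted p = 0.0244), and quantile normalization gave -0.43 (adjusted p = 0.0127). The LPS response of C57 minus that of B6 was 0.59 (SE 0.23, adjusted p = 0.0806), and the adjusted p was 0.0220 with the mouse as a block. Leaving out B6_LPS library 2, B6_Untreated library 3 or PWD_Untreated library 1 gave 0.71, 0.70 and 0.59 with adjusted p of 0.0332, 0.0333 and 0.0490. For PWD the response differences, given as a description, were 0.40 against B6 and -0.19 against C57. All these levels are near 1 TPM, where the depth behind a value is unknown.

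Aqp9 was present in every library, and LPS moved it in opposite directions in PWD and C57. It lies on the minus strand of chromosome 9 (chr9:71110659-71168682, mm10), overlapped by an antisense gene, Gm32511, and a processed pseudogene, Gm47268, which reached at most 0.136 and 0.150 TPM. The labels do not state the strand setting used in counting, so reads from the antisense gene cannot be told apart with certainty. Aqp9 stood at 31.3, 29.5, 36.9 and 36.6 TPM in PWD_LPS cells of mice 1 to 4, against 17.4, 15.8, 27.6 and 24.1 TPM in PWD_Untreated cells. It stood at 8.78, 9.48, 11.8 and 10.7 TPM in C57_LPS cells, against 17.2, 16.7, 16.8 and 15.7 TPM in C57_Untreated cells. In B6_LPS cells it was at 18.5, 13.6, 11.6 and 11.4 TPM, and in B6_Untreated cells at 14.1, 14.5, 11 and 12.0 TPM. LPS and untreated libraries did not overlap in PWD, where LPS was higher, nor in C57, where LPS was lower, and they did overlap in B6.

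In PWD cells Aqp9 rose with LPS by 0.67 (SE 0.15) on the log2(TPM + 1) scale, to 33.6 ± 3.75 TPM against 21.2 ± 5.56 TPM in untreated cells (SD, n = 4 each, limma adjusted p = 3.9e-04). All 4 mice were higher, with ratios of 1.34 to 1.87, while most genes of these libraries were lower (median -0.32). The rise was 0.73 without structural RNA and 1.03 with median-of-ratios scaling. In C57 cells Aqp9 fell by 0.66 (SE 0.15, adjusted p = 4.5e-04), to 10.2 ± 1.34 TPM against 16.6 ± 0.645 TPM in untreated cells, and all 4 mice were lower, with ratios of 0.511 to 0.702. This comparison called 62.5% of genes and 1 of the 2 tested members, and the fall of Aqp9 was 0.32 on the same scale with quantile normalization or median-of-ratios scaling, still called. Structural RNA took 39.9% and 41.2% of TPM in C57_LPS cells of mice 1 and 2 and 31.6% and 33.4% in mice 3 and 4, and without it the ratios of the 4 mice ran over 0.563 to 0.666 and the difference was -0.64. In B6 cells the difference was 0.07 (adjusted p = 0.685), with 13.8 ± 3.32 TPM in LPS and 12.9 ± 1.67 TPM in untreated cells. It was -0.07 without B6_LPS library 1, and against a median of -0.43 it was called higher at 0.60 with median-of-ratios scaling (adjusted p = 7.7e-05) and at 0.54 with quantile normalization (adjusted p = 1.7e-04).

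**Figure D3:**
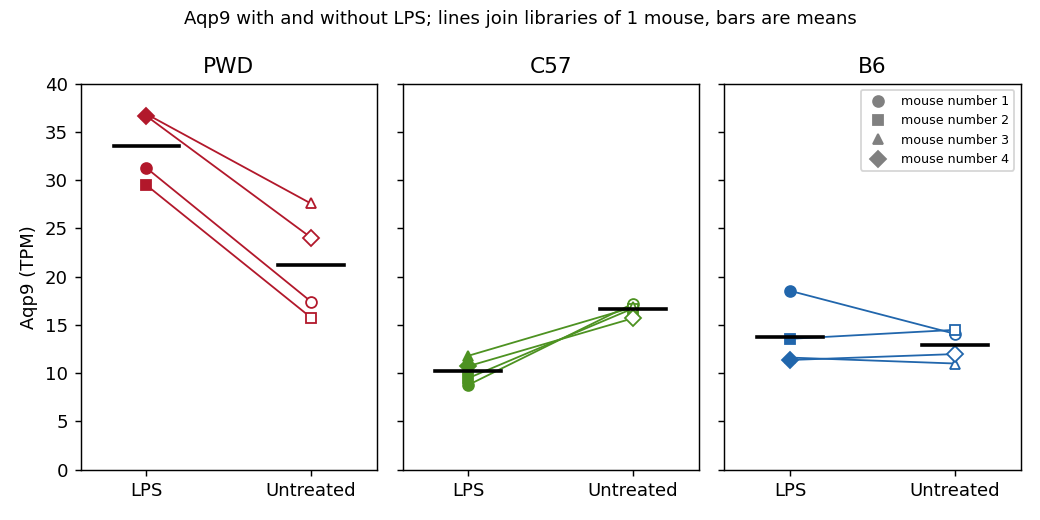
Aqp9 in TPM in LPS (filled) and untreated (open) cells of each mouse, by strain, with lines joining the libraries of 1 mouse and black bars for means. All 4 PWD lines are higher on the LPS side, all 4 C57 lines are lower there, and the B6 lines go both ways.

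The responses themselves differed. The LPS response of PWD was larger than that of C57 by 1.33 (SE 0.21, limma adjusted p = 6.3e-05), a comparison that called 11.4% of genes. This held under every alternative run, over 1.20 to 1.46 when each library was left out in turn. The response of PWD was larger than that of B6 by 0.59 (SE 0.21, adjusted p = 0.0404), where 23.5% of genes were called. That call was lost when any of 9 libraries was left out, PWD_LPS 3 or 4, PWD_Untreated 1 or 2, B6_LPS 2, 3 or 4, or B6_Untreated 1 or 2, with differences of 0.47 to 0.60 and adjusted p of 0.0568 to 0.105. The response of C57 was below that of B6 by 0.73 on the log2 scale (difference -0.73, SE 0.21, adjusted p = 0.0188), where 14.3% of genes were called, and the adjusted p was 0.0580 with no filter on low values. Of the 2 tested members Aqp9 was the one called in each of these, Aqp3 having no test against PWD.

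**Figure D4:**
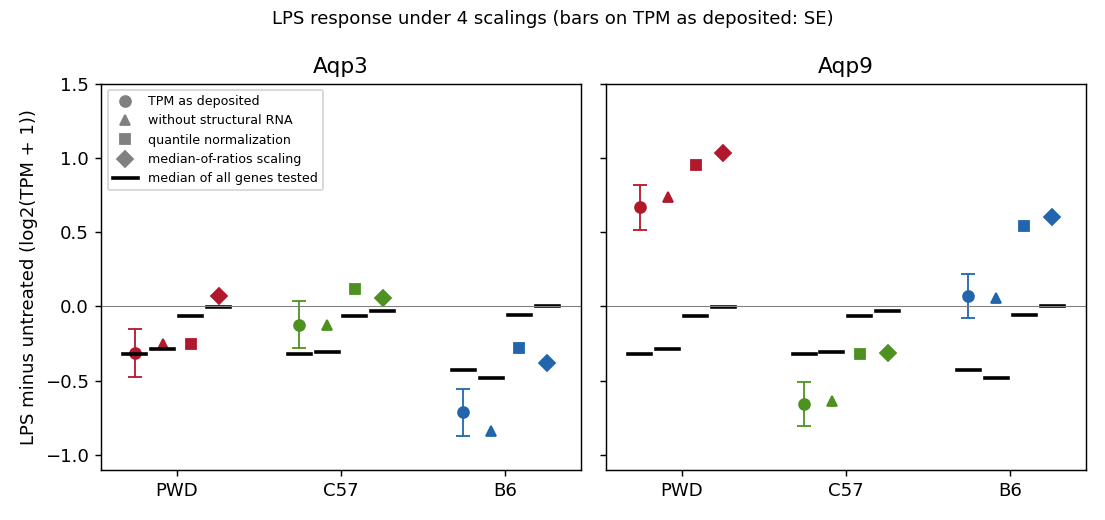
LPS minus untreated on the log2(TPM + 1) scale for Aqp3 and Aqp9 in each strain under 4 scalings, with SE bars on deposited TPM and black lines for the median of all genes tested. Aqp9 is above 0 in PWD and below 0 in C57 under all 4, while Aqp3 in PWD is at -0.31 on deposited TPM and at 0.07 with median-of-ratios scaling.

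Between strains, Aqp9 in LPS cells was higher in PWD than in B6 by 1.25 (SE 0.15, limma adjusted p = 3.8e-08) and higher in PWD than in C57 by 1.63 (SE 0.15, adjusted p = 4.1e-10), with no overlap in either. These comparisons called 68.6% and 54.2% of genes. In untreated cells PWD was higher than B6 by 0.65 (adjusted p = 5.2e-04, 57% of genes called), but by 0.20 (adjusted p = 0.219) over mice 1 and 2 alone. PWD minus C57 was 0.30 in untreated cells (adjusted p = 0.0999, 46.2% of genes called and no tested member). Over mice 1 and 2 that difference was -0.03 and over mice 3 and 4 it was 0.63 (adjusted p = 3.8e-04), and without PWD_Untreated library 2 it was 0.43 (adjusted p = 0.0230). Mice 1 and 2 of PWD_Untreated are also those with more structural RNA and almost no Xist, and the part of either was not tested further. With structural RNA left out the difference was 0.32 (adjusted p = 0.0259).

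The C57 minus B6 difference of Aqp9 had opposite signs in LPS and untreated cells. In LPS cells it was -0.38 (SE 0.15, limma adjusted p = 0.0295), with 58.8% of genes called, although the groups overlapped. Without C57_LPS library 1 or 2 it was -0.32 and -0.35 (adjusted p = 0.0920 and 0.0659), and without B6_LPS library 1 or 2 it was -0.24 and -0.38 (adjusted p = 0.167 and 0.0515). In untreated cells it was 0.35 (SE 0.15, adjusted p = 0.0642) with no overlap, 15.7 TPM and above in C57 against 14.5 TPM and below in B6. Without PWD_Untreated library 2 or 3 or B6_LPS library 1, each of which bears on it through the shared estimate of spread, the adjusted p was 0.0477, 0.0437 and 0.0423.

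Aqp9 made up most aquaporin RNA outside PWD: 89.6% of the summed aquaporin TPM in C57_LPS, 91.9% in C57_Untreated, 90.6% in B6_LPS and 83.2% in B6_Untreated, against 20.1% in PWD_LPS and 11.2% in PWD_Untreated. Summed over 12 aquaporins the level was 167 ± 22.2 TPM in PWD_LPS, 189 ± 45.0 in PWD_Untreated, 11.4 ± 1.43 in C57_LPS, 18.1 ± 0.900 in C57_Untreated, 15.2 ± 3.43 in B6_LPS and 15.5 ± 1.99 in B6_Untreated (SD, n = 4 each).

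Neutrophils, which are known for Aqp9, may be left in such cultures. The 11 neutrophil markers, 9 to 11 of them at 1 TPM or more on average, summed to 775 to 1212 TPM in PWD_LPS against 1746 to 2930 TPM in PWD_Untreated. Most of each sum was S100a8 and S100a9, and single markers differed: in PWD, Camp averaged 43.5 TPM in LPS and 40.6 TPM in untreated cells and Elane 1.02 and 0.633 TPM, while Cxcr2 averaged 6.70 and 25.4 TPM. The sums were 1444 to 2792 TPM in C57_LPS against 2316 to 3939 TPM in C57_Untreated, and 1069 to 1329 TPM in B6_LPS against 1547 to 1785 TPM in B6_Untreated. In B6, Camp (3.19 against 0.740 TPM), Csf3r (16.8 against 9.26) and Ly6g (5.06 against 4.99) had higher means with LPS, and the others lower ones. In C57 only Camp had a higher mean with LPS (4.15 against 3.88 TPM). The part of these cells in the LPS differences of Aqp9 was not tested in any strain.

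The nearest tested gene to Aqp9 was Aldh1a2, 47107 bases away, which makes retinoic acid and is known from dendritic cells. It was higher with LPS in all 3 strains, by 1.49 in PWD (83.1 against 29.2 TPM in untreated cells), 1.04 in C57 (14.7 against 6.66 TPM) and 0.91 in B6 (94.0 against 50.1 TPM), all called by limma. By Pearson r over the 24 libraries the genes most like Aqp9 were Chka (0.925), choline kinase, Slc2a3 (0.923), a glucose transporter, Zfp267 (0.913), Cavin1 (0.913), a coat protein of caveolae, and Repin1 (0.912). Slc2a3 averaged 36.1 TPM in PWD_LPS and 9.12 TPM in PWD_Untreated, against 1.49 TPM in C57_LPS, 2.82 in C57_Untreated, 1.45 in B6_LPS and 1.96 in B6_Untreated. Aqp3 and Aqp9 correlated with r = 0.799 over the same libraries, which share the strain contrast.

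Aqp1 was low everywhere and stood apart from 0 in PWD alone. It lies on the plus strand (chr6:55336432-55348555, mm10). Its values were 0.610, 0.376, 0.465 and 0.391 TPM in PWD_LPS cells and 0.848, 0.490, 0.806 and 0.511 TPM in PWD_Untreated cells. It was at 0 in 3 of 4 C57_LPS libraries and at 0.0325 TPM in the other, and it reached at most 0.071 TPM in C57_Untreated, 0.0512 TPM in B6_LPS and 0.0571 TPM in B6_Untreated. Each PWD library lay above each C57 and B6 library, as for Aqp3, in the contrast that chose the set. It was lower with LPS in all 4 PWD mice, with ratios of 0.578 to 0.767 and overlapping groups. Aqp1 missed the filter, and in a fit with no filter over 27131 symbols that difference was -0.18 (limma adjusted p = 0.0306). That fit called 9090 symbols, 7294 of them lower with LPS. With structural RNA left out, the ratios of Aqp1 in the 4 mice ran over 0.642 to 0.892. Median-of-ratios scaling was not run for this difference. Erythroid markers stayed at the low sums given for Aqp3. These averaged 3.69 TPM in PWD_LPS and 3.45 TPM in PWD_Untreated, against 2.74 to 2.87 TPM elsewhere, with overlap between libraries. Hba-a1 averaged 1.54 TPM in PWD_LPS and 2.00 TPM in PWD_Untreated, against 0.186 to 0.872 TPM elsewhere. Hbb-bt was lower in PWD, at 0 and 0.485 TPM against 0.820 to 1.26 TPM. Of 8 endothelial markers, 2 to 4 averaged 1 TPM or more, and the sums ran over 7.76 to 11.6 TPM in PWD_LPS and 6.72 to 9.79 TPM in PWD_Untreated, against 23.5 to 37.8 in C57_LPS, 39.1 to 47.3 in C57_Untreated, 24.4 to 30.6 in B6_LPS and 18.7 to 22.0 in B6_Untreated. Vwf, Kdr and Pecam1 carried most of these sums outside PWD. Kdr averaged 6.15 TPM in PWD_LPS, against 4.71 in C57_LPS and 17.5 in B6_LPS. In PWD_Untreated it averaged 2.65 TPM, against 2.67 in C57_Untreated and 3.84 in B6_Untreated. Tie1, an endothelial receptor kinase, went the other way from the sums, at 1.31 TPM in PWD_LPS and 3.07 TPM in PWD_Untreated against 0.0341 to 0.155 TPM elsewhere. So did Emcn, at 0.137 and 0.118 TPM against at most 0.0929 TPM elsewhere. The part of endothelial or erythroid cells in the level of Aqp1 was not tested. The genes most like Aqp1 were Adamdec1 (r = 0.974), a metalloprotease, Camk4 (0.970), a calcium-dependent kinase, Gstp2 (0.968), Olfr482 (0.968) and Ceacam2 (0.965). All had higher means in both PWD groups than elsewhere, so that r here too mostly reflects the strain contrast that chose the set.

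No comparison of Aqp11 passed the threshold. It lies on the minus strand (chr7:97724006-97738289, mm10). It was at 0.259, 0.146, 0 and 0.221 TPM in PWD_LPS, 0.0513, 0.124, 0.209 and 0.179 TPM in PWD_Untreated, 0.0634, 0.0731, 0.324 and 0 TPM in C57_LPS, 0.413, 0.268, 0.192 and 0.226 TPM in C57_Untreated, 0.330, 0.0903, 0 and 0 TPM in B6_LPS and 0.0485, 0.0835, 0.0499 and 0.0702 TPM in B6_Untreated. All groups but C57_Untreated and B6_Untreated overlapped in some library with each other. In the fit with no filter the smallest limma adjusted p over the 12 comparisons was 0.0618, for C57 minus B6 in untreated cells. The gene most like Aqp11, Dglucy, reached r = 0.726. Of the 8 other aquaporins, Aqp2, Aqp4 and Aqp6 were at 0 in all libraries, and the highest value of the rest was 0.303 TPM, of Aqp8.

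**Figure D5:**
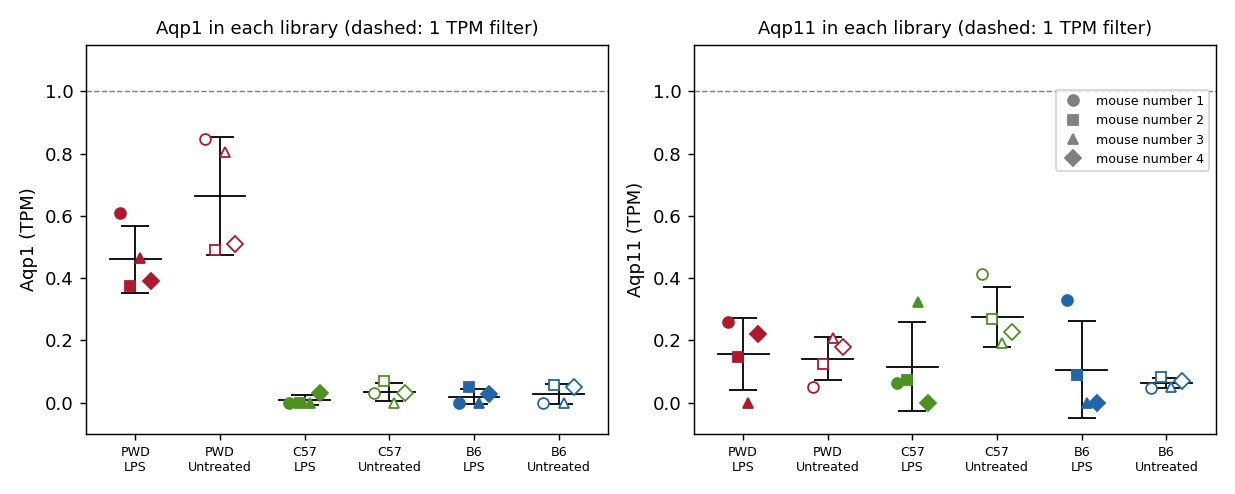
Aqp1 and Aqp11 in TPM by library in the 6 groups, with filled markers for LPS, open markers for untreated cells, a line for the mean, bars for the SD and a dashed line at 1 TPM, the filter. Aqp1 is above 0.37 TPM in all PWD libraries and below 0.072 TPM elsewhere, and Aqp11 is at 0.413 TPM or less throughout.

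Glycerol that passes Aqp3 or Aqp9 is made and used by enzymes of lipid and glycerol metabolism. Of 16 tested genes of glycerol handling, 3 rose and 10 fell with LPS in PWD (limma, median -0.51 against -0.32 over all genes), where 11.1% of all genes tested were called higher and 52.4% lower. Gpd2, the mitochondrial glycerol-3-phosphate dehydrogenase, rose by 1.16 (74.1 against 32.6 TPM in untreated cells), while Lpin1, a phosphatidate phosphatase, fell by 1.51 (4.96 against 16.0 TPM), Gpd1l fell by 1.13 and Pgp, which removes phosphate from glycerol-3-phosphate, fell by 1.11. In untreated cells 11 were higher and 1 lower in PWD than in B6 (median 0.54 against 0.14 over all genes), where 37.2% of all genes tested were called higher and 19.7% lower. Those included Dgat2 (2.36, 25.7 against 4.17 TPM in B6) and Dgat1 (1.35), which make triglyceride, Mgll (1.73), which frees glycerol from monoglycerides, and Lpin1 (1.63). C57 minus B6 in untreated cells also gave 11 higher and 1 lower (median 0.45 against 0.17, 38.8% of all genes called either way). PWD minus C57 there gave 8 higher and 1 lower (median 0.24 against -0.04, 46.2% called). With LPS, 1 rose and 10 fell in C57, and 3 rose and 11 fell in B6 (62.5% and 71.6% of all genes called).

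Genes of cell volume and osmotic balance were split. Of 19 tested, 4 rose and 10 fell with LPS in PWD, close to the 52.4% of all genes called lower (11.1% higher), with a median of -0.24 against -0.32 over all genes. Among them were Nfat5 (1.24), the transcription factor of the response to high salt, and its known target Slc6a12 (1.12), a betaine carrier, which rose, and Slc12a7 (-0.96), a potassium-chloride cotransporter, and Slc6a6 (-0.93), a taurine carrier, which fell. In untreated cells 10 were higher and 3 lower in PWD than in B6, where 37.2% and 19.7% of all genes were called (median 0.30 against 0.14 over all genes), with Slc6a12 lower by 1.57 on the log2 scale (difference -1.57), Stk39, a kinase of volume control, at -0.67, Lrrc8b, a subunit of the volume-regulated anion channel, at 0.89 and Akr1b3, aldose reductase, at 0.63. C57 minus B6 there gave 7 higher and 1 lower, and PWD minus C57 gave 5 and 5 (38.8% and 46.2% of all genes called). With LPS, 2 rose and 8 fell in C57, and 5 rose and 8 fell in B6 (62.5% and 71.6% called).

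Of 17 tested genes that make or remove hydrogen peroxide, 5 rose and 6 fell with LPS in PWD, where 11.1% and 52.4% of all genes did so (median -0.17 against -0.32 over all genes). Sod2, the mitochondrial superoxide dismutase, rose by 1.79 (778 against 225 TPM in untreated cells), Prdx5 by 1.33 and Cybb, the core of the phagocyte oxidase, by 0.82, while Prdx6 fell by 0.85. In untreated cells 7 were higher and 3 lower in PWD than in B6, near the 37.2% and 19.7% of all genes (median 0.10 against 0.14 over all genes), with the oxidase subunits Ncf1 (0.95) and Cybb (0.93) higher and catalase (Cat, -0.76) and Sod1 (-0.72) lower. C57 minus B6 there gave 7 higher and 0 lower, and PWD minus C57 gave 2 and 3 (38.8% and 46.2% of all genes called). With LPS, 4 rose and 9 fell in C57, and 5 rose and 9 fell in B6 (62.5% and 71.6% called). Of 4 tested carriers of other small solutes that aquaglyceroporins also pass, 3 fell with LPS in PWD, where 52.4% of all genes did (median -1.03 against -0.32), Slc16a1 by 1.41, Slc16a7 by 1.04 and Slc16a6 by 1.03, and all 4 were higher in PWD than in B6 untreated cells, where 37.2% of all genes were (median 0.88 against 0.14), Slc16a7 by 1.5. All 4 carriers were also higher in C57 than in B6 untreated cells (median 0.90 against 0.17, 38.8% of all genes called either way). In PWD minus C57 there, 1 was higher and 1 lower (median 0.13, 46.2% called). All 4 fell with LPS in C57 and in B6 as well (62.5% and 71.6% of all genes called). With median-of-ratios scaling the counts that fell with LPS in PWD were 6, 3 and 2 for glycerol handling, volume and hydrogen peroxide.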

How the data were processed

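Dendritic cells from bone marrow (24 libraries, 6 groups of 4) were profiled by stranded bulk RNA-seq from 1 µg of total RNA, per the labels. The deposited values are TPM in 1 table of 55401 lines. STAR, edgeR and mm10 stand in the submitters' processing notes, without versions, and the annotation, counting tool and strand setting were not given in the sources used here. Read depth is lost in TPM, so the counting error of low values is unknown.

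Lines of the same symbol were summed, which left 55291 symbols. TPM were taken as log2(TPM + 1). The 13246 genes that reached 1 TPM in 4 libraries or more entered a limma 3.58.1 fit (R 4.3.3) of 6 group means over all libraries, and empirical Bayes was run with trend and robust options. In each of 12 comparisons two-sided p-values were adjusted by Benjamini-Hochberg over all these genes, with calls at an adjusted p under 0.05. The fit was tested on simulated data. Libraries of the same strain and number come from 1 mouse, per the design text. With group means removed, these 12 pairs correlated at r of 0.0513 to 0.176, with the own partner best in 10.

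Coordinates are from GENCODE M21 on mm10 and promoter windows from RefSeq. Named genes are the 4 members, up to 4 called genes of each pathway list with the largest difference, the tested genes within 100 kb, and the 5 genes most like each member by Pearson r, leaving out unnamed models and pseudogenes; not all are printed, and 1 gene is not reported here. Other settings tried were no filter or one of 5 TPM, a pseudocount of 0.1 TPM, quantile normalization, median-of-ratios scaling, TPM without structural RNA, limma without trend and robust, only the groups compared, the replicate block, mice 1 and 2 or 3 and 4 alone, and leaving out each library. The members and lists were chosen with earlier results of these data known.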

Additional observations from a re-analysis of the deposited data

Results flagged for a closer look

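The LPS response of Aqp9 differed between strains by a test of the difference itself (limma, Benjamini-Hochberg adjusted over 13246 genes). The difference was 1.33 for PWD minus C57 (adjusted p = 6.3e-05), 0.59 for PWD minus B6 (adjusted p = 0.0404) and -0.73 for C57 minus B6 (adjusted p = 0.0188), on the log2(TPM + 1) scale. These comparisons called 11.4%, 23.5% and 14.3% of genes. The PWD minus B6 call was lost when any of 9 libraries was left out, and with no filter. The C57 minus B6 call was also lost with no filter. Aqp9 was higher with LPS in 4 of 4 PWD mice, lower in 4 of 4 C57 mice and mixed in B6.

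Aqp1 in C57_LPS library 4 was at 0.0325 TPM while the other 3 libraries of the group were at 0, a gap that marks it as far from the rest. The value is close to 0, and other aquaporins near 0 showed the same pattern. Aqp7 in PWD_Untreated and in C57_Untreated and Aqp12 in B6_Untreated also had 3 of 4 libraries at 0.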

How the results depend on the processing

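For Aqp3 and Aqp9, 24 results under 840 alternatives stayed the same in 773. For tested results the same means an unchanged direction and side of the threshold. For the Aqp3 contrasts with PWD, which carry no test, it means an unchanged direction and a shift smaller than the SD within groups. Exceptions follow, as log2(TPM + 1) differences with their limma adjusted p where tested.

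Aqp3 with LPS in PWD was 0.069 (median-of-ratios), -0.31 (replicate block, adjusted p = 0.0278), -0.49 (mice 3 and 4, adjusted p = 0.0185) and -0.47 to -0.21 with each library left out. Aqp3 with LPS in C57 was 0.056 (median-of-ratios) and 0.12 (quantile), and in B6 -0.28 (quantile). For C57 minus B6 in LPS cells Aqp3 was -0.38 and -0.43 under those scalings, and for the C57 minus B6 response 0.72 without structural RNA, 0.59 under the replicate block and 0.51 to 0.71 over libraries left out. Aqp3 strain differences, described only, were with a pseudocount of 0.1 TPM 6.80 and 6.02 against B6 and 7.06 and 7.14 against C57 (LPS, untreated). Against B6 in LPS cells they were 5.65 (quantile), 6.28 (without structural RNA), 5.73 (mice 1 and 2) and 6.23 (mice 3 and 4), and in untreated cells 5.22 and 5.94 by mice. Against C57 they were 6.47 in LPS and 6.60 in untreated cells without structural RNA, and 5.94 and 6.70 by mice in untreated cells. The PWD minus B6 response was 0.79 (pseudocount 0.1) and 0.025 (quantile), and PWD minus C57 was 0.013 (median-of-ratios), 0.064 (mice 1 and 2) and -0.44 (mice 3 and 4).

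Aqp9 with LPS in B6 was 0.60 (median-of-ratios), 0.54 (quantile) and -0.071 to 0.15 over libraries left out. PWD minus B6 untreated was 0.20 over mice 1 and 2. PWD minus C57 untreated was 0.35 (median-of-ratios), 0.38 (quantile), 0.32 (without structural RNA), -0.030 (mice 1 and 2), 0.63 (mice 3 and 4) and 0.17 to 0.43 over libraries left out. C57 minus B6 in LPS cells was -0.38 (no filter, adjusted p = 0.0789), -0.028 (mice 3 and 4) and -0.46 to -0.24 over libraries left out, and in untreated cells 0.35 (only the groups compared, adjusted p = 0.0130), 0.47 (mice 3 and 4) and 0.28 to 0.40 over libraries left out. The PWD minus B6 response was 0.59 with no filter (adjusted p = 0.0977), without trend and robust (0.0514) and with only the groups compared (0.0771), and 0.47 to 0.74 over libraries left out, and C57 minus B6 was -0.73 with no filter. The replicate block changed no call beyond the 2 of Aqp3 above. The cause of these changes was not tested.

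Scaling moved the share of higher calls among genes called with LPS in PWD to 50.9% (median-of-ratios) and 40.2% (quantile), against 17.4% on deposited TPM; in C57 it was 48.5% and 39.7% against 16.6%, in B6 50.6% and 41.9% against 16.6%. In PWD, LPS counts changed as follows: glycerol handling lower 6 (median-of-ratios, mice 1 and 2) against 10, volume higher 9 (both scalings) against 4 and lower 3 (median-of-ratios) and 4 (mice 1 and 2) against 10, hydrogen peroxide higher 9 against 5 (median-of-ratios) and lower 2 (median-of-ratios, mice 1 and 2) against 6, carriers higher 1 against 0. For PWD minus B6 untreated, glycerol handling lower was 0 (mice 3 and 4) against 1, volume higher 6 (only the groups compared) and 3 (mice 1 and 2) against 10, volume lower 1 to 6 against 3, hydrogen peroxide higher 2 to 13 against 7 and lower 6 (mice 1 and 2) against 3. Aqp1 and Aqp11 lie where TPM of unknown depth limit any comparison.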
